A study of Mus musculus with 8 samples.

Results

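Hepatic B cells were taken as cluster i5 of the immune cells, the 58 cells that the authors' multilevel clustering of the immune data set had put in cluster 5. They are 58 of the 3491 liver cells of the series and 58 of the 651 immune cells with a cluster. All of them belong to the male immune pool of 255 cells, so i5 is part of 1 sample. The study's legend for this cluster states fewer cells than the deposited annotation holds, for a reason not given in the sources used here. The rule used cluster membership. The clusters had themselves been built from the same counts, so levels of B cell genes in i5 against other clusters are descriptions and were given no test.

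The study sequenced single cells from dissociated livers of adult male and female mice by Smart-seq2, a plate method that reads full-length cDNA of cells sorted into wells and here carried no molecular identifiers. The mice were *C57BL6/J* or heterozygous carriers of the reporters *Pdgfrb*GFP, *Pdgfra*H2bGFP, *Cspg4*dsRED, *Acta2*GFP or *Cldn5*GFP, aged 8 weeks to 1 year, and no label ties a cell to a mouse, a strain or an age. Cells were sorted on antibodies against CD31, VE-Cadherin, EPCAM, CD68 or PDGFRα, on a reporter, or as living cells, and no B cell antibody was used. The number of i5 cells is therefore no measure of B cell abundance, and blood was not flushed from the livers, so tissue and blood B cells cannot be told apart.

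The references for i5 came from the same male pool. The Kupffer cells of clusters 1, 3, 4, 6 and 7 are the resident liver macrophages, with 134 male cells. Cluster i2 holds 63 male myeloid cells, which the community clustering had split into 38 cells with monocyte and macrophage genes such as *Cx3cr1*, 9 cells with *Lyz2* and without *Cx3cr1*, and 16 cells with *Siglech*, a plasmacytoid dendritic cell gene. The study assigns the community of the 9 cells to Kupffer cells, as a subgroup it left undefined. Neither reference is a cluster of B cells. In i2, 2 of the 63 cells had at least 2 of the T cell genes *Cd3d*, *Cd3e* and *Cd3g* at 20 counts, and the 13 T cell genes summed to as much as 10140.3 CPM (counts per 1000000 counts of the cell or group) in an i2 cell, with a median of 3.41. Without these 2 cells, a choice made after the data were seen, the genes called against i2 below numbered 303 higher and 935 lower. Kupffer cell genes were also found in i2, where 16 of them summed to a median of 4263 and a highest of 44914 CPM per cell. In the 40 i2 cells on plates without i5 cells, the Kupffer cell gene *Clec4f* was at 1455 CPM. The 2 references therefore overlap in Kupffer cell genes.

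A B cell carries its antigen receptor as a membrane immunoglobulin, a heavy and a light chain, held by the signalling pair CD79A and CD79B and tuned by the co-receptors CR2 and CD81 and by inhibitory receptors such as CD22. Each cell joins its own V, D and J segments and normally keeps either a kappa or a lambda light chain, and a mature naive cell splices the same rearranged heavy chain to IgM and to IgD. B cells also present antigen on MHC class II, a function they share with macrophages and dendritic cells. In the liver they lie scattered among sinusoids and portal tracts and pass through with the blood.

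The i5 cells lay on 5 of the 22 plates, with 35 on plate 704s (60.3%), 15 on 708s (25.9%), 6 on EC_170s and 1 each on EC_173s and EC_174s. Total counts per i5 cell were 53089 at the lowest, 262466 at the median and 499863 at the highest, with 1496, 3870 and 6455 genes counted. The 6 cells of EC_170s were the shallowest, with a median of 60198 counts. Male i2 cells had medians of 362775 counts and 4735 genes, and male Kupffer cells 210196 counts and 3270 genes. With cells thinned to 50000 counts, leaving out 1 shallower Kupffer cell, the median number of genes was 2130 in i5, 2906 in i2 and 1825 in Kupffer cells. Cells of a pool share their preparation and are not replicates, so every interval below covers counting error only, as an exact Poisson interval for a summed count and an exact binomial (Clopper-Pearson) interval for a share of cells, each at 95%.

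The label was checked against its markers before any comparison. *Cd79a*, the CD79A chain by which the study named the cluster, reached at least 20 counts in 56 of 58 cells (96.6%, 88.1 to 99.6%), and *Ptprc*, the pan-leukocyte phosphatase CD45, in 47 of 58 (81.0%, 68.6 to 90.1%). The other 2 cells, both from plate 704s, went against the label. The cell annotated as a monocyte by the authors had 16 *Cd79a* and 24 *Ighm* counts beside 88 counts of *Ncr1*, 93 of *Klrb1c*, 232 of *Gzmb* and 160 of *Trbc1*, genes of natural killer and T cells. The other cell, annotated as a B cell, had 7 *Cd79a* and 1 *Ighd* counts beside 409 of *Cd3e*, 612 of *Cd3g*, 275 of *Trac* and 434 of *Trbc1*, the T cell receptor and its CD3 chains, and also 603 counts of *Ighm*. Each of the other 56 cells had 110 or more *Cd79a* counts. In those 56 cells the 13 T cell genes summed to a median of 21.1 CPM, with 3 of the genes at 0, and 7 of the 8 natural killer cell genes were at 0. In the 2 cells the T cell genes summed to 829 and 6695 CPM. Values per cell are given below for the 56 cells, and summed levels for all 58 unless stated.

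**Figure D1:**
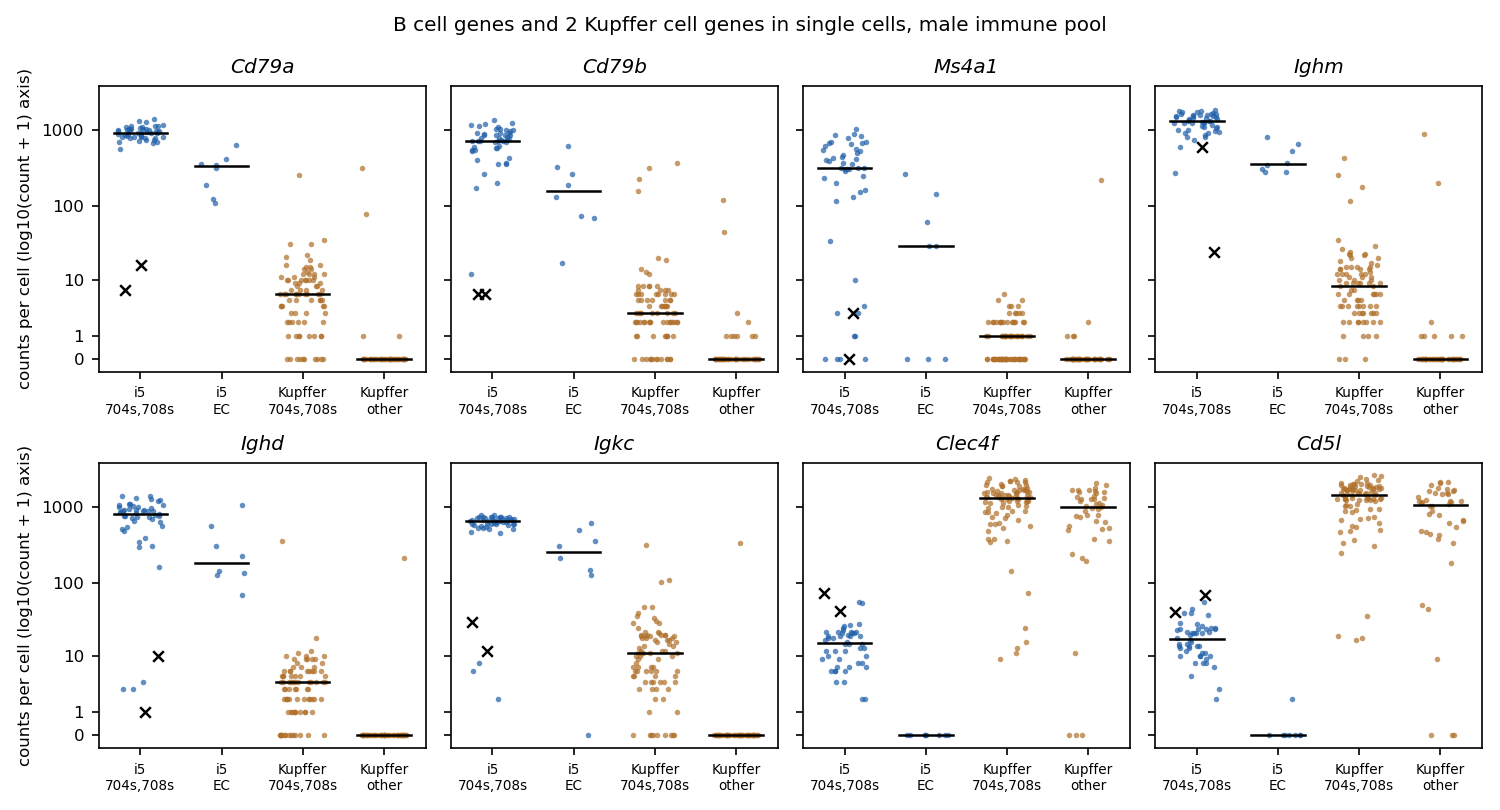
Counts per cell (log10(count + 1) axis) of 6 B cell genes and the Kupffer cell genes *Clec4f* and *Cd5l* in i5 cells (blue) and Kupffer cells (brown) of the male pool, split by plate, with a bar at the median. The 2 crosses are the i5 cells under 20 *Cd79a* counts, which hold 16 or fewer counts of *Cd79a*, *Cd79b* and *Ighd*. Kupffer cells on 704s and 708s have a low but often nonzero count of these B cell genes.

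B cell genes were counted at low levels in other cells of plates 704s and 708s. *Cd79a* was counted in 45 of 47 Kupffer cells on 704s (95.7%, median 9 counts) and in 32 of 40 on 708s (80.0%, median 3), where the i5 cells had medians of 943 and 915. On plates without i5 cells it was counted in 4 of 44 Kupffer cells (9.09%). Endothelial cells showed the same split, with *Cd79a* in 39 of 41 cells on 704s (95.1%) and in 15 of 947 on plates without i5 cells (1.58%). On EC_170s, with 6 i5 cells, *Cd79a* was counted in 3 of 43 endothelial cells (6.98%) and *Igkc* in 5 of 43 (11.6%). In the opposite direction, the Kupffer cell gene *Clec4f* was counted in all 35 i5 cells of 704s (median 19 counts against 1389 in Kupffer cells there) and in all 15 of 708s (median 12), and in 0 of 6 on EC_170s, which allows a share of up to 45.9%. The part of free RNA or of reads given to the wrong well in these values was not tested. A gene was read as present in a cell at 20 or more counts, a limit that did not clear these values on 704s or 708s. On 704s *Clec4f* reached it in 16 of 35 i5 cells and *Cd5l*, another Kupffer cell gene, in 20 of 35, *Cd79a* reached it in 8 of 41 endothelial cells, and *Igkc* in 17 of 41 endothelial and 17 of 47 Kupffer cells. On 708s *Cd5l* reached it in 4 of 15 i5 and 12 of 39 endothelial cells and *Igkc* in 3 of 40 Kupffer cells. There *Cd79a* reached it in no Kupffer or endothelial cell.

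A gene was called higher or lower at a log2 ratio of at least 2 in size between the CPM of the summed counts (1 CPM added to each), counted in at least 30% of the cells of the higher group, among genes counted in at least 10% of the cells of either group. Against Kupffer cells, 647 of 11370 genes tested were called higher in i5 and 761 lower, 5.69% and 6.69%. Against i2, 296 of 12852 were called higher and 961 lower, 2.30% and 7.48%. Since the calls rest on the share of cells with any count, they were also made with 20 counts needed in a cell, which left 218, 223, 113 and 318. The mean of within-plate ratios gave 1021 higher and 818 lower than in Kupffer cells, and 786 higher and 1215 lower than in i2. Reference cells from plates without i5 gave 539 genes higher than in i2. The i2 cells lay on other plates than i5 for the most part, with 40 of 63 on plates without i5 cells, and on 704s 5 of 8 and on 708s 4 of 7 were cells with *Siglech*. Of the genes of the fixed lists called lower than in i2, 41 of 79 kept a mean within-plate log2 ratio of 2 or more in size on 704s and 708s, 21 kept the direction at a smaller size and 17 turned. Of those called higher than in i2, 49 of 65 kept that size and 16 the direction alone. Against Kupffer cells 92 of 93 higher and 47 of 52 lower genes kept the size, and none turned. Calls against i2 that turned within plates are named below where the gene is given. Without the 2 cells named above the counts were 665, 782, 302 and 1013. Called higher against both were 227 genes, which are 35.1% of those higher than in Kupffer cells and 76.7% of those higher than in i2, and 513 genes were called lower against both. The median log2 ratio over all genes tested was 0.24 against Kupffer cells and -0.08 against i2. Since both comparisons share the i5 cells, this overlap is no independent support.

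The 15 genes of largest ratio called higher against both, ordered by the smaller ratio, included *Fcmr*, the Fc receptor for IgM, at 1967 CPM in i5 (1945 to 1989.9), 9.63 in Kupffer cells and 1.76 in i2. Its log2 ratios were 7.53 and 9.48. Further surface receptors among the 15 were *Ms4a1*, which encodes CD20 (1203 CPM, 6.73 and 9.45), *Cd79a* (3209.6 CPM, 6.23 and 9.05), *Fcer2a*, the low-affinity IgE receptor CD23 (1024 CPM, 5.50 and 9.26), and the chemokine receptors *Ccr7* (1444 CPM, 8.29 and 6.09) and *Cxcr5* (716 CPM, 6.07 and 8.86). All of them were at 0 counts in the median cell of both references, except *Cd79a*, at a median of 2 counts per Kupffer cell. Part of the Kupffer level came from 1 cell of that reference, chosen after the data were seen for having at least 5 of 9 B cell genes at 20 counts. It held 546 of the 670 *Fcer2a* counts, 219 of 320 for *Ms4a1* and 220 of 299 for *Cxcr5*. Without it the ratio of CPM moved from 47.3-fold to 252-fold for *Fcer2a*, from 116-fold to 364-fold for *Ms4a1* and from 74.1-fold to 277-fold for *Cxcr5*.

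The transcriptional regulators among the 15 were *Pou2af1*, the octamer coactivator OCA-B (393 CPM, log2 ratios 7.58 and 8.44), *Pax5*, which holds B cell identity (582 CPM, 6.66 and 8.65), and *Ebf1*, the early B cell factor (318 CPM, 5.31 and 6.90). *Blk*, a Src family kinase of the receptor, stood at 602 CPM (7.89 and 7.38), the pre-B cell gene *Vpreb3* at 265 CPM (6.45 and 7.99) and the kinase gene *Lrrk2* at 265 CPM (6.47 and 5.74). The remaining entries were *Gm8369* (578 CPM, 6.07 and 6.79) and *AL603913.1* (75.9 CPM, 5.86 and 6.20), for which the table gives only a clone or model name. *Ebf1* was also present outside the immune cells, at 108 CPM in mesenchymal cells, and *Lrrk2* at 56 CPM in endothelial cells. Without the same Kupffer cell the ratio of CPM moved from 45.1-fold to 154-fold for *Ebf1*, from 130.1-fold to 405-fold for *Vpreb3* and from 132-fold to 253-fold for *Lrrk2*, and by less than 1.5 times for the other genes given here.

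None of the 10 lowest genes called lower against both reached 20 counts in any i5 cell. The C-type lectin *Clec7a*, which binds fungal glucans, was at 1.74 CPM in i5, 439.8 in Kupffer cells and 422 in i2, with log2 ratios of -7.33 and -7.27. Its relative *Clec4n* had a ratio of -7.61 against Kupffer cells, and the endotoxin co-receptor *Cd14* had -6.96. *C3ar1*, a complement receptor, had -7.04 and *Lair1*, a collagen receptor, -7.06. *Cadm1* (-7.44), an adhesion molecule, *Slc7a8* (-7.60), an amino acid transporter, and *Ms4a6d* (-7.07) were in the group together with *Rgs1*, a regulator of G protein signalling, which was at 0.870 CPM in i5, 279 in Kupffer cells and 1055 in i2. *Cadm1* was also at 472 CPM in epithelial cells. Against the i2 cells of the same plate, 8 on 704s and 7 on 708s, several of these differences were small or turned. *C3ar1* was at 0.381 CPM in i5 and 0.668 in i2 on 704s, and at 1.63 and 0.384 on 708s, so the mean of its within-plate log2 ratios over i2 was 0.33. *Clec4n* (-0.04) and *Clec7a* (-1.67) likewise fell short of 2 in size, and *Cd14* was at 1.33 CPM in i5 against 0.668 in i2 on 704s but at 0.271 against 80.7 on 708s (mean -2.76). Against Kupffer cells of the same plate the 9 genes given here all stayed lower in i5 by a mean log2 ratio of more than 5 in size.

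**Figure D2:**
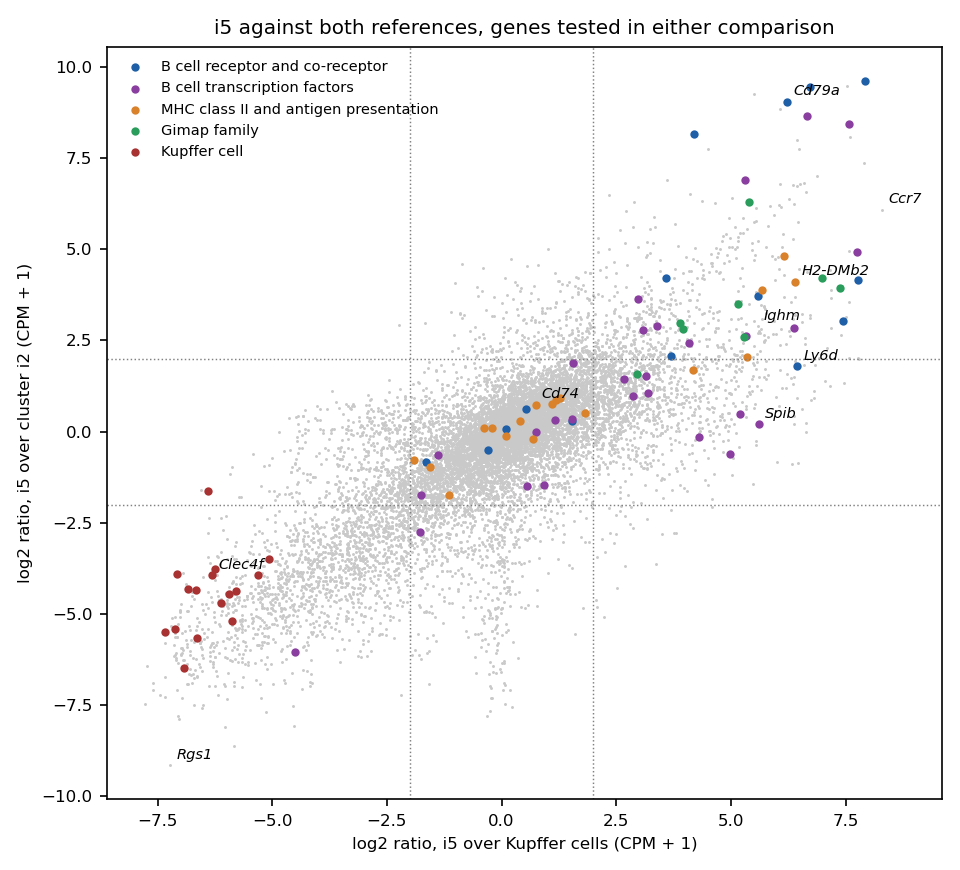
Log2 ratio of i5 over Kupffer cells (x axis) against log2 ratio of i5 over cluster i2 (y axis), each with 1 CPM added, for genes tested in either comparison (grey) and 5 gene lists (coloured). Dotted lines mark the ratio of 2 in size used for calls. *Cd79a* and *Ccr7* lie high on both axes, *Ly6d* and *Spib* high on the x axis alone, and *Cd74* near 0 on both.

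Of the 15 genes of the B cell receptor complex and its co-receptors, 10 were called higher in i5 than in Kupffer cells, where 5.69% of all genes tested were, and 9 than in i2, where 2.30% were. None was called lower, and the list's median log2 ratios were 4.19 and 3.03. *Cd79a* ran from 110 through a median of 908 to 1421 counts in the 56 cells, and *Cd79b* from 12 through 720.0 to 1367. In Kupffer cells *Cd79a* ranged from 0 to 320 with a median of 2, so the ranges overlapped through 2 Kupffer cells that stood high and the medians lay far apart. Summed over cells, *Cd79a* was 76.9-fold (72.7 to 81.3) the Kupffer level and *Cd79b* 49.1-fold (46.7 to 51.6).

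Summed over all plates, *Cd79b* set the references apart from each other. It was at 190.4 CPM in i2, with 22 of 63 cells at 20 counts or more, and i5 was 13.2-fold higher (12.8 to 13.6), while *Cd79a* reached 20 counts in 1 of 63 i2 cells. On 704s *Cd79b* was at 18.6 CPM in Kupffer cells and 129 in i2, but on 708s at 139.6 and 145. *Ly6d*, a surface antigen of the lymphoid lineage, was higher than in Kupffer cells (1246 against 13.2 CPM) and not called against i2 (356 CPM). Within i2 it came from the 16 cells with *Siglech*, at 1219 CPM, and was at 1.18 and 0 CPM in the other communities of 38 and 9 cells. *Cr2*, the complement receptor CD21, reached 20 counts in 18 of 58 i5 cells. The tetraspanin *Cd81* of the same co-receptor was lower in i5 (465 CPM) than in Kupffer cells (1451) and i2 (833), without a call. Against the i2 cells of the same plate it was higher in i5, at 445 against 13.4 CPM on 704s and 558 against 69.9 on 708s. *Ptprc* was at 1147 CPM in i5 and 934 in i2, a ratio of 1.23 (1.2 to 1.25).

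Downstream of the receptor, 10 of 25 signalling genes were called higher than in Kupffer cells, beside 5.69% of all genes, and 5 than in i2, beside 2.30%. *Fyn* was called lower against both and *Grb2* lower than in Kupffer cells, beside 6.69% and 7.48% of all genes called lower than in Kupffer cells and i2. *Syk*, the kinase that reads the phosphorylated CD79 tails, was at 582 CPM in i5 and 113 in Kupffer cells, and its adaptor *Blnk* at 479 and 47.0. *Bank1*, a B cell scaffold protein, was at 959 CPM against 183 in Kupffer cells and 117 in i2. *Malt1*, which links the receptor to NF-κB, was at 86.6 CPM in i5 and at 4.75 in Kupffer cells, and was not called against i2. *Lyn*, *Vav1*, *Inpp5d* and *Ptpn6*, signalling genes also used by myeloid cells, had log2 ratios between -0.31 and 1.08 against Kupffer cells. Within the Src family the i5 cells thus held *Blk* at 602 CPM, *Lyn* at 371 and *Fyn* at 4.08, summed levels that are not corrected for transcript length.

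Of 13 inhibitory receptor genes 11 were tested, with 7 called higher than in Kupffer cells, beside 5.69% of all genes, and 4 than in i2, beside 2.30%. *Cd22* and *Siglecg*, sialic acid receptors that damp receptor signals, were at 1075 and 926 CPM in i5 and at 88.6 and 3.85 in Kupffer cells. *Btla* was at 559.9 CPM against 6.88, and the Fc receptor-like genes *Fcrl1* and *Fcrla* at 406 and 528 against 49.6 and 5.72. *Fcgr2b*, the inhibitory IgG receptor, was called against Kupffer cells (264 against 54.3 CPM) and not against i2 (210.3). *Cd72* and *Pirb* were not called in either direction, and *Lair1* was the list's gene called lower.

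Among 28 B cell transcription factors, 17 were called higher than in Kupffer cells, beside 5.69% of all genes, and 10 than in i2, beside 2.30%, with median log2 ratios of 3.11 and 1.02. Called against both were *Pax5*, *Ebf1*, *Pou2af1*, *Tcf3*, *Foxp1*, *Ikzf3*, *Bach2*, *Irf4*, *Mef2c* and *Ets1*, regulators of B cell commitment, maturation and activation. *Foxp1* reached 20 counts in 48 of 58 cells (1099 CPM), *Ets1* in 37 and *Ikzf3* in 27. *Spib* and *Bcl11a*, which plasmacytoid dendritic cells also use, were called against Kupffer cells alone, at 546 and 219 CPM in i5 and 475 and 157 in i2. *Irf8* was at 531 CPM in i5 and 1505 in i2, where the 16 cells with *Siglech* held 3427. *Xbp1* and *Prdm1*, which drive antibody secretion, were at 64.0 and 0.201 CPM, and *Xbp1* was called lower than in i2 (432 CPM).

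*Ighm* and *Ighd* were the heavy chain constant genes with counts. In the 56 cells *Ighm* ran from 278 through 1244 to 1852 counts, and *Ighd* from 3 through 778 to 1391, with 53 of 56 cells at 20 or more (94.6%, 85.1 to 98.9%). *Ighg1*, *Ighg2b*, *Ighg2c*, *Ighg3*, *Igha* and *Ighe*, the constant genes of switched isotypes, were at 0 counts over all 58 cells, as were *Jchain*, which joins secreted IgM and IgA, and *Iglc4*. A sum of 0 allows up to 0.201 CPM, taken as 3 counts. *Ighm* was thus far above 20 counts in every cell, whereas 3 cells had 3, 3 and 4 *Ighd* counts and the next lowest 69. *Ighd* reached 20 counts in 2 of 134 Kupffer cells and 2 of 63 i2 cells. The level of *Ighm* was 4445 CPM against 92.2 in Kupffer cells and 598 in i2, where all 16 cells with *Siglech* reached 20 counts.

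The 3 cells with few *Ighd* counts, singled out after their values were seen, differed among themselves. On 704s, the first had 278 *Ighm* counts and 821 *Cd79a* counts but 0 *Pax5* and 6 *Ptprc* counts. The second, also on 704s, had 1558 *Ighm*, 1073 *Cd24a* (the highest of the 56 cells), 149 *Cd9*, 157 *Cd1d1* and 336 *Vpreb3* counts, and 3 counts of *Ccr7*. The cell on 708s had 1520 *Ighm*, 238 *Cd9* and 703 *Cxcr5* counts and 0 *Fcer2a*. *Cd9* reached 20 counts in these latter cells and in 1 other of the 56.

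Light chain constant genes split by plate. *Igkc*, the kappa constant gene, reached 20 counts in 52 of the 56 cells. In the 45 of them on 704s and 708s *Igkc* ran from 457 through 653 to 781 counts, and the summed lambda constant genes *Iglc1*, *Iglc2* and *Iglc3* from 160 through 530.0 to 1191. In the 7 cells on the EC plates *Igkc* ran from 127 through 309 to 606, and the lambda sum from 0 through 13.0 to 113. No cell of 704s and 708s with *Igkc* was thus without lambda counts, while 4 of the 7 EC cells had fewer than 20. The other 4 of the 56 cells had 0, 2, 6 and 8 *Igkc* counts with lambda sums from 268 to 1525, and lay on 704s (1 cell), 708s (2 cells) and EC_170s (1 cell).

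With kappa set at 90% or more of these counts and lambda at 10% or less, 5 of 58 cells were kappa (8.62%, 2.86 to 19%), 49 mixed and 4 lambda (6.90%, 1.91 to 16.7%), and all 5 kappa cells lay on EC plates. With kappa set at more than 50% of these counts, 40 of 58 were kappa (69.0%, 55.5 to 80.5%). On 704s and 708s *Iglc2* ran from 17 through 295 to 582 counts in the 45 kappa-bearing cells, and from 0 through 1 to 152 in the 87 Kupffer cells of the same plates. *Iglc3* ran from 3 through 210.0 to 434 against 0 through 1 to 122. The medians of the kappa-bearing cells therefore lay far above those of the Kupffer cells on their plates, although the ranges overlapped. The i2 cells stood closer for *Iglc3*, with a median of 108 counts (summed level 421 CPM) on 704s and 62 (234 CPM) on 708s, where all i5 cells had a median of 209 on each plate (687 and 803 CPM). *Iglc1* reached 20 counts in 18 of the 45, with a median of 7, and reached it in none of the 87 Kupffer cells.

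**Figure D3:**
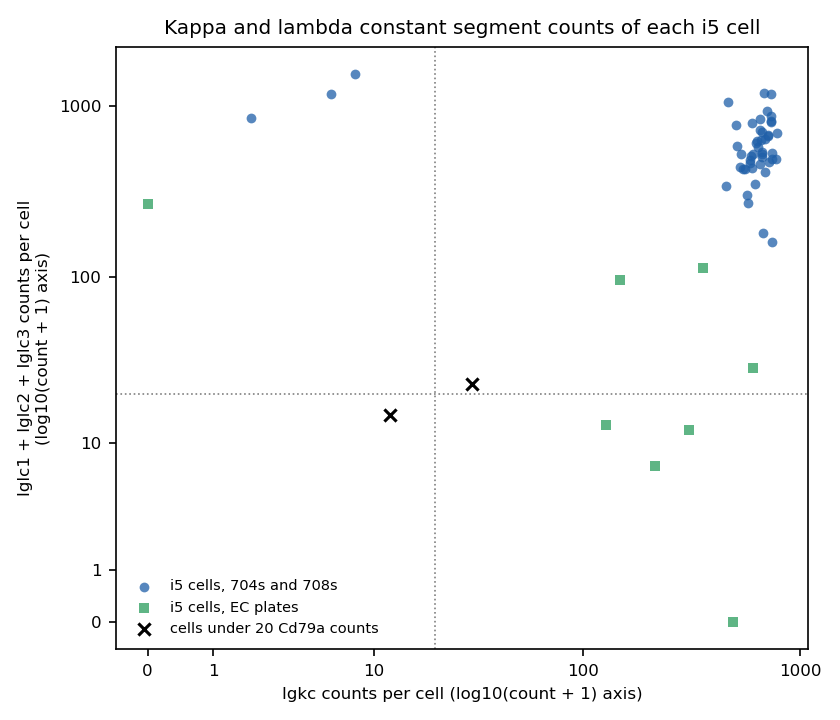
*Igkc* counts (x axis) against the summed counts of *Iglc1*, *Iglc2* and *Iglc3* (y axis) in each i5 cell, both on a log10(count + 1) axis, with dotted lines at 20 counts. Leaving aside the 2 crosses, which are the cells under 20 *Cd79a* counts, cells of plates 704s and 708s (circles) with *Igkc* at 20 counts or more lie at 160 to 1191 lambda counts, cells of the EC plates (squares) with *Igkc* at 0 to 113, and 4 cells stand at the left with 8 or fewer *Igkc* counts.

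*Iglc2* and *Iglc3* are near-identical copies, and their sequences are shown because they bear on how 50-base reads divide between them. Below are the compared stretches of *Iglc2* (chr16:19198553-19198852, minus strand) and *Iglc3* (chr16:19065382-19065681, minus strand), 5′ to 3′ in the coding direction, from GENCODE vM21 on GRCm38, with capitals at the bases that differ.
Iglc2: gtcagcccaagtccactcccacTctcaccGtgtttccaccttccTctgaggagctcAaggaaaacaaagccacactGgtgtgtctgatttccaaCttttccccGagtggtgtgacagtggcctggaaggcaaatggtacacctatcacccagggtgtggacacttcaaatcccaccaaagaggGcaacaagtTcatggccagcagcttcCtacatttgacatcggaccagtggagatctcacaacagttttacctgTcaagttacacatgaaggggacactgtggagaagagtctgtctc
Iglc3: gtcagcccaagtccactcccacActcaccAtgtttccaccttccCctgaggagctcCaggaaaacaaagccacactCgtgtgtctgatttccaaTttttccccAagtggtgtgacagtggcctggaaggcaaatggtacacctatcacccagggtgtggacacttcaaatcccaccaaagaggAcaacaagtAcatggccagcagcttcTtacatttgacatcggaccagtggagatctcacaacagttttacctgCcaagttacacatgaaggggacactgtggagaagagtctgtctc
Over 300 bases compared, 11 differed (96.3% identical), and 43 of the 409 stretches of 50 bases in the *Iglc2* transcript (10.5%) also occurred in *Iglc3*. None of them occurred in *Iglc1* or *Igkc*. The split of counts between *Iglc2* and *Iglc3* is uncertain to that extent, while sharing of identical reads with *Igkc* was not found. Whether duplicate reads had been removed is not given in the sources used here. The highest count in an i5 cell per base of exon was 1.47 for *Igkc* (781 counts over 532 bases), 0.982 for *Ighm* and 0.975 for *Cd79a*, and among 17152 genes with at least 100 counts in some cell of the series 5 exceeded 2 per base. The part of such a ceiling in the ratios of abundant genes was not tested.

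Variable segments differed from cell to cell. Among the 56 cells, 53 had a heavy chain V segment at 20 counts or more, and the leading segment took a median of 92.9% of all *Ighv* counts (51.5 to 100%). The leading segments were 38 different ones, of which *Ighv1-26* led in 4 cells. For kappa V segments, 52 cells had a leading segment with a median of 86.0% of *Igkv* counts, 39 segments led, and *Igkv8-21* led in 3 cells. In 30 of the cells a further *Igkv* segment also reached 20 counts, against 18 for *Ighv*. Of the 49 cells with a leading segment of both kinds, none shared its pair of segments with another cell. V segments are close copies whose counts can be split between them, and no clonotype was called. A lambda V segment reached 20 counts in 34 cells, led by *Iglv3* in 25, and in 1 cell of 704s *Igkc* stood at 505 counts beside 587 of *Iglc1* and 387 of *Iglv1*.

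Genes of follicular B cells, the recirculating naive cells, followed. Of 11, 10 were called higher than in Kupffer cells, beside 5.69% of all genes, and 8 than in i2, beside 2.30%, with median log2 ratios of 5.50 and 4.37. In the 56 cells *Fcer2a* ran from 0 through 211 to 921 counts and reached 20 in 43 (76.8%, 63.6 to 87.0%). *Ccr7*, which guides cells to the T cell zones of lymph nodes, ran from 0 through 309 to 1257. *S1pr1*, which guides exit into blood and lymph, reached 20 counts in 38 of 56 cells and *Cxcr5*, which guides cells to follicles, in 30 of 56. *Klf2*, a regulator of *S1pr1*, was the list's gene without a call against Kupffer cells (367 against 126 CPM).

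Lists of other B cell states held fewer calls in number, beside 5.69% and 2.30% of all genes called higher. Of 11 marginal zone genes, *Cr2* and *Mzb1* were called higher against both references, 2 of the 9 tested against Kupffer cells and 2 of the 10 tested against i2, where *Myof* was lower. Of 12 B1 cell genes, 0 of the 8 tested were called against Kupffer cells, and against i2, with 7 tested, *Atxn1* was higher and *Bhlhe40* and *Itgam* lower. *Cd9* reached 20 counts in 3 of the 56 cells (5.36%, 1.12 to 14.9%), *Cd1d1* in 6 and *Cd5*, the B1a marker, in 1, at 119 counts. *Bhlhe41*, a B1 cell regulator, was at 21.4 CPM in i5, 17 in Kupffer cells and 29.5 in i2, and thus at a like low level in all. Among 12 immature and precursor genes *Vpreb3* and *Cd24a* were called higher against both, of 7 and 8 tested, and *Rag1* and *Igll1* were at 0. *Cd93*, a marker of transitional cells, was at 39.6 CPM and reached 20 counts in 2 cells.

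Activated and effector states followed. Of all genes, 5.69% and 2.30% were called higher and 6.69% and 7.48% lower than in Kupffer cells and i2. Against each reference, 4 germinal centre, 7 plasma cell and 5 memory and age-associated genes were tested. In the germinal centre list *Bcl6* was called against Kupffer cells (248 against 27.3 CPM), *S1pr2* and *Basp1* were lower than in i2 (within plates 0.25 and -1.70), and *Gcsam*, *Mef2b*, *Rgs13* and *Mki67* were at 0 counts. Of 11 plasma cell genes *Irf4* alone was called higher, against both, *Xbp1* and *Slamf7* were lower than in i2, of which *Slamf7* turned within plates (2.11), and *Jchain*, *Tnfrsf17* and *Derl3* were at 0. Of 9 memory and age-associated genes none was called higher, *Zeb2* was lower against both and *Itgax* lower than in i2, with *Cd80* at 0 and *Tbx21* at 0.536 CPM. None of 16 cell cycle genes was called in either direction. *Mki67*, at 0 in i5 and 43.5 CPM in Kupffer cells, was not tested, since it was counted in under 10% of the cells of each group.

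**Figure D4:**
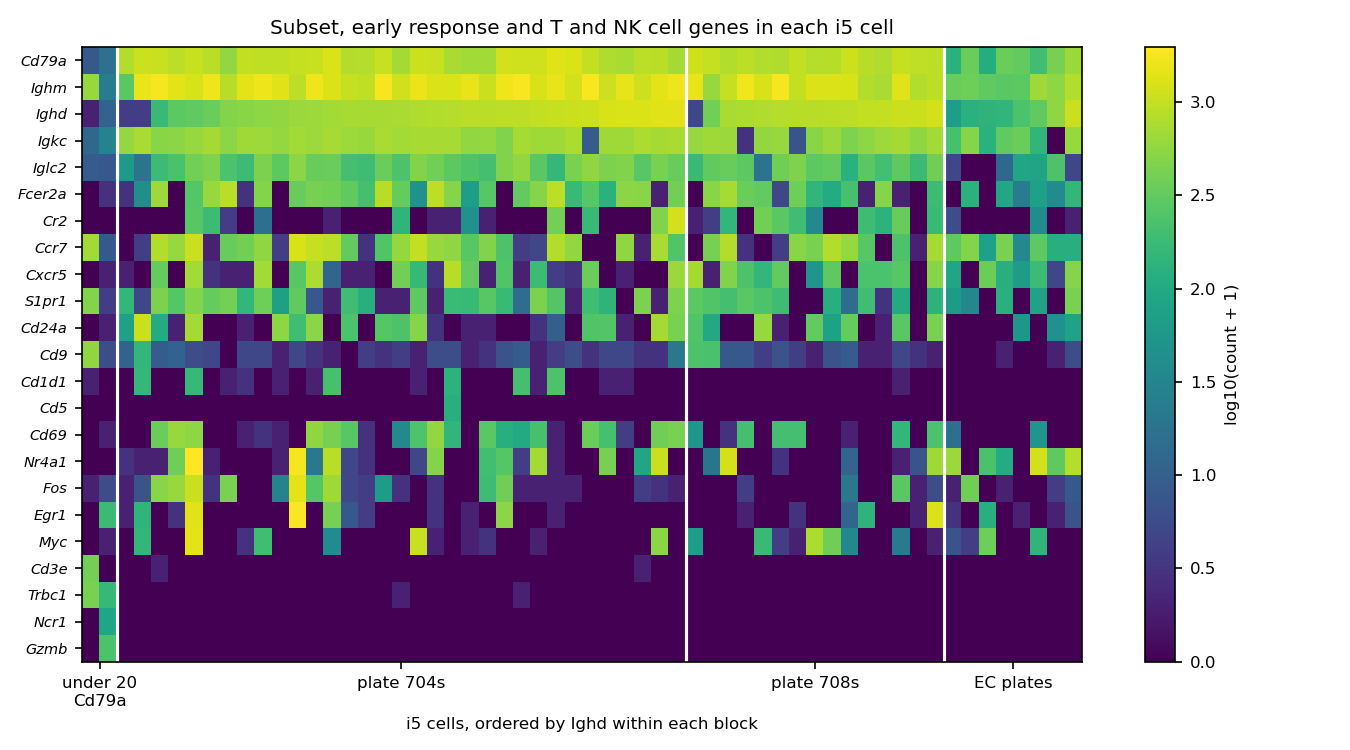
Log10(count + 1) (colour) of 23 genes in each of the 58 i5 cells (columns), with the 2 cells under 20 *Cd79a* counts at the left and then the cells of plate 704s, 708s and the EC plates, ordered by *Ighd* within each block. *Cd79a* and *Ighm* fill the columns of the 56 cells, *Cr2*, *Cd24a*, *Cd69* and *Nr4a1* vary from cell to cell, and *Cd3e*, *Trbc1*, *Ncr1* and *Gzmb* stand out in the 2 cells at the left.

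Of 18 antigen presentation genes, 5 were called higher than in Kupffer cells, beside 5.69% of all genes, 4 of them also than in i2, beside 2.30%, and none was called lower, beside 6.69% and 7.48%. *Cd74*, the invariant chain, reached 20 counts in all 58 i5 cells and ran from 580 through 1588 to 1990 in the 56, and its summed level was 1.67-fold that of Kupffer cells (1.66 to 1.69). *H2-Aa*, *H2-Ab1* and *H2-Eb1*, the class II chains, had log2 ratios of 1.19, 1.09 and 1.28 against Kupffer cells and 0.86, 0.75 and 0.91 against i2, none called. The 5 called were *H2-DMb2*, *H2-Oa*, *H2-Ob*, *H2-Eb2* and the class II activator *Ciita*, the last not called against i2.

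*H2-Oa* and *H2-Ob* encode H2-O, which restrains the peptide-loading factor H2-M. *H2-Ob* was at 1636 CPM in i5 (1615 to 1656), 31.0 in Kupffer cells and 111 in i2, with a median of 436 counts in the 56 cells and 0 in the median Kupffer and i2 cell. Of the H2-M genes, *H2-DMa* was level (685, 644 and 752 CPM), while *H2-DMb2* was 91.0-fold the Kupffer level (82.5 to 101) and *H2-DMb1* was at 137 CPM against 304 and 459. *H2-DMb1* and *H2-DMb2* are close copies, so the sizes of their ratios are uncertain. *Ctss* and *Ifi30*, a protease and a reductase that prepare antigen, were at 1008 and 385 CPM in i5 against 2998 and 1454 in Kupffer cells, without a call. The co-stimulatory ligand *Icosl* was called higher and *Cd86* lower against both (12.1 CPM in i5, 285 and 205 in the references), and *Cd80* was at 0. Within plates *Cd86* turned against i2, at 3.81 CPM in i5 against 1.34 on 704s and 37.9 against 1.15 on 708s.

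Homing receptors held 11 of 20 genes called higher than in Kupffer cells, beside 5.69% of all genes tested, and 6 than in i2, beside 2.30%. Lower were 2 than in Kupffer cells, beside 6.69% of all genes, and 4 than in i2, *Cxcr3*, *S1pr2*, *Selplg* and *Itgb1*, beside 7.48%. Of these 4, *Cxcr3* and *Selplg* kept a size of 2 within plates, *Itgb1* kept the direction alone and *S1pr2* turned. Beside *Ccr7*, *Cxcr5* and *S1pr1*, *S1pr4* was at 546 CPM against 20.3 and 76.0, and *Gpr18*, a lymphocyte G protein-coupled receptor, at 363 against 0.905 and 10.7. *Gpr183*, which senses oxysterols, was at 456 CPM and 3.72 in Kupffer cells and was not called against i2 (127). *Ccr6* stood at 115 CPM with 0.162 and 0.226 in the references and reached 20 counts in 7 cells, short of the share needed for a call. *Itgb1* was called lower against both and *Itgal* lower than in Kupffer cells, integrin chains at 32.7 and 148 CPM in i5. *Cxcr3* was at 0.937 CPM against 125 in i2.

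Survival receptors and cytokines followed. *Tnfrsf13c*, the BAFF receptor on which naive B cells depend, was at 373 CPM against 1.07 in Kupffer cells and 41.1 in i2, and *Tnfrsf13b* (TACI) at 303 against 29.2 and 98.8, the latter not called against i2. *Bcl2* was at 224 CPM against 22 and 5.28, whereas *Bcl2l1*, its relative, was at 1.87 against 58 and 54.6. *Cnr2*, the leukocyte cannabinoid receptor, was at 276 CPM and called against both. Of 16 cytokine genes 11 were tested against Kupffer cells, with *Ltb* higher and *Ebi3* lower, beside 5.69% and 6.69% of all genes. Against i2, 12 were tested, with *Ltb* higher and 5 lower (*Ebi3*, *Ccl3*, *Ccl4*, *Cxcl10* and *Lgals1*), beside 2.30% and 7.48%. The median log2 ratios were -0.49 and -2.37, and within plates -0.13 and -0.47. On the shared plates *Cxcl10* was near 0 in both, with a within-plate log2 ratio of -0.42 over i2. *Ltb*, the lymphotoxin beta that shapes lymphoid tissue, was at 1080.0 CPM against 6.5 and 83.6, with 44 of 56 cells at 20 counts or more. *Il10*, *Il6* and *Csf2* were at 0 counts in i5. *Lta* and *Il12a* were at 66.1 and 63.9 CPM in 7 and 5 cells, without a call.

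Toll-like receptors and interferon-stimulated genes held more lower than higher calls. Of 20 genes of the Toll-like list, *Cd180*, a B cell relative of *Tlr4*, was called higher than in Kupffer cells and 3 were lower, *Tlr2*, *Tlr12* and *Cd14*, against 6.69% of all genes called lower. Against i2, 5 were lower, where 7.48% of all genes were, and within plates 2 of the 5 kept a size of 2 and *Tlr12* turned (0.08). *Tlr4* stood at 0.870 CPM in i5, 58.8 in Kupffer cells and 39.6 in i2 (within plates 0.43 over i2), and the nucleic acid sensors *Tlr7* and *Tlr9* at 7.63 and 20.6. Of 18 interferon-stimulated genes 7 were lower than in Kupffer cells and 6 than in i2, none was higher, and the median log2 ratios were -2.37 and -2.18. Within plates the medians were -3.02 and 0.05, so the list did not run lower than in the i2 cells of 704s and 708s, where 4 of the 6 calls kept a size of 2 and *Oasl2* turned (2.40). *Irf7* was at 115 CPM against 1163 and 604, *Bst2* at 125 against 620.2 and 650.2, and *Isg15* at 0.201 against 38.1 and 37.8 (within plates 0.17 over i2), while *Stat2* had log2 ratios of 0.02 and 0.15.

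The Gimap genes, GTPases of lymphocyte survival that lie in a cluster, followed. Of 8, all but *Gimap9* were called higher against both references, beside 5.69% and 2.30% of all genes, with median log2 ratios of 5.22 and 3.24. *Gimap6* ran from 0 through 293 to 901 counts in the 56 cells and reached 20 in 50 of them, at 1248 CPM against 34.1 and 110.1. *Gimap3* was at 716 CPM against 4.65 and 37.5, and *Gimap7* at 239.9 against 0.452 and 14.7. The family's members resemble each other, and reads may divide between neighbours.

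Early response genes are known to be induced by tissue dissociation as well as by antigen, and they varied between i5 cells. Of 24, 8 were called higher than in Kupffer cells, beside 5.69% of all genes tested, and 2 lower, *Ier3* and *Atf3*, beside 6.69%. Against i2, 3 were higher (*Cd69*, *Myc* and *Dusp2*), beside 2.30%, and 4 lower (*Fosb*, *Ier3*, *Atf3* and *Dusp1*), beside 7.48%. The list's median log2 ratios were 1.74 against Kupffer cells and -0.22 against i2, and within plates 3.97 and 0.69. Of the 4 genes lower than in i2, *Ier3* alone kept a size of 2 within plates, and *Atf3* turned (0.76), at 23.2 CPM in i5 against 0 in i2 on 704s and 23.3 against 203 on 708s. *Dusp1* was higher in i5 on 704s (284 against 135 CPM) and lower on 708s (231 against 593). Against Kupffer cells *Ier3* and *Atf3* fell to -1.93 and -0.64 within plates. *Nr4a1*, a reporter of receptor signalling, had a median of 2 and a highest count of 1972 in the 56 cells and reached 20 in 20 (35.7%, 23.4 to 49.6%). *Cd69*, which holds lymphocytes in tissue, reached 20 in 25 cells (44.6%, 31.3 to 58.5%), *Myc* in 14, *Fos* in 13 and *Egr1* in 8. At 20 counts, 12 cells had none of the 5 genes, 25 had 1, 7 had 2, 9 had 3, 1 had 4 and 2 had all 5. The level of *Nr4a1* moved with the plate, at 787 CPM on 704s, 524 on 708s and 6395 on EC_170s, where the 4 i2 cells were also highest (2148 CPM against 283 on 704s and 977 on 708s). Other genes of the list ran differently across the same plates in i5, with *Fos* at 542, 84.3 and 13.3 CPM, *Cd69* at 558, 287 and 175 and *Myc* at 325, 389.6 and 1367. The part of the plate was not tested.

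**Figure D5:**
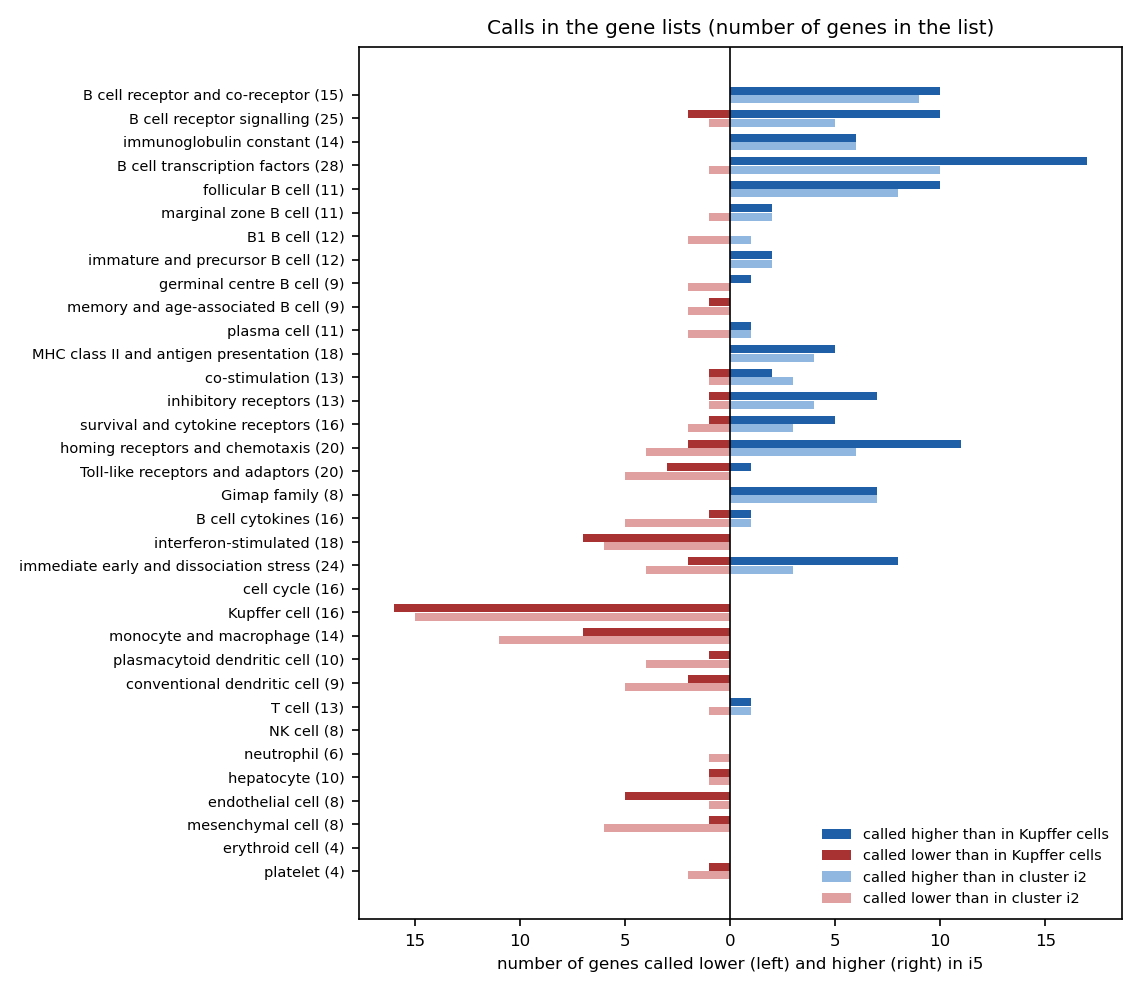
Number of genes called lower (left of 0) and higher (right of 0) in i5 for each gene list, against Kupffer cells (dark bars) and against cluster i2 (light bars), with the size of each list in parentheses. The receptor, transcription factor, follicular, homing and Gimap lists extend to the right, the Kupffer, monocyte and interferon-stimulated lists to the left, and the cell cycle list is empty. Bars count calls over all plates, and of the 15 Kupffer list genes called lower than in i2, 6 turned within plates.

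Markers of other cell types were summed in i5 and its references. All 16 Kupffer cell genes were called lower than in Kupffer cells, and they summed to 0 CPM in the lowest, 363 in the median and 1585 in the highest of the 56 cells, against a median of 41048 in Kupffer cells. *Clec4f* was at 59.4 CPM against 4827 and *Timd4* at 3.28 against 600.1. Against i2, 15 of the 16 were called lower, beside 7.48% of all genes. Within plates 2 of the 15 kept a size of 2, 7 kept the direction alone and 6 turned. Those that turned were *Clec4f*, *Vsig4*, *Timd4*, *Cd5l*, *Slc40a1* and *Mrc1*. The list's median log2 ratio over i2 moved from -4.36 to -0.33 within plates. *Cd68*, the antigen used to sort macrophages, was at 10 CPM in i5 and reached 20 counts in no cell. *Pecam1*, the CD31 antigen used to sort endothelial cells, was at 291 CPM and reached 20 counts in 17 of 58, while *Cdh5*, the VE-Cadherin antigen, was at 3.75. *Siglech* was at 8.97 CPM against 1223 in i2. The 10 genes of the plasmacytoid dendritic cell list, some of which B cells share, summed to 1395 CPM in i5, 1389.8 in Kupffer cells and 5380.1 in i2. The 14 monocyte and macrophage genes summed to 983 CPM in i5 and 10962 in Kupffer cells, and the 8 endothelial genes to 408, against 838 in Kupffer cells and 313 in i2. The 13 T cell genes summed to 652 CPM over all 58 i5 cells, 11.9 in Kupffer cells and 630.4 in i2. In the T cell list *Cd2*, which B cells also express, was called higher, with 26 of 58 cells at 20 counts. The neutrophil and mesenchymal lists summed to 2.48 and 15.5 CPM, and the hepatocyte genes to 506 CPM against 2303 in Kupffer cells. Of 6 mesenchymal genes called lower than in i2, 5 turned within plates, *Pdgfrb*, *Col1a1*, *Col1a2*, *Col3a1* and *Acta2*.

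The B cell genes were also compared plate by plate. *Cd79a* stood at 3006 CPM on 704s, 3747 on 708s and 4028 on EC_170s. *Ighd* was at 2382, 3365 and 3856 CPM, *Ccr7* at 1417, 1308 and 3315, and *Cd74* at 5217, 6312 and 11356. *Fcer2a* and *Ltb* ran lower on the shallow plate EC_170s, at 1080, 931 and 609.5 CPM and at 1093, 1111 and 376. On 704s and 708s, the 2 plates with at least 5 cells of i5, i2 and Kupffer cells, all of *Cd79a*, *Fcer2a*, *Ccr7* and *Ltb* were above their level in the Kupffer and i2 cells of the same plate. The genes called lower did not all hold in this way against i2, as given above.

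Promoter windows of the genes called higher against both references were searched for the sites of the factors named above. The octamer ATGCAAAT, bound by the POU factors that *Pou2af1* assists, and the palindromic EBF site, which is TCCC, a gap of any 2 bases and GGGA, were read on both strands of RefSeq windows (GRCm38.p6) from 250 bases before to 50 after each gene's start. The octamer was in 5 of 228 windows (2.19%), those of *Chchd10*, *Cnr2*, *Itpr3*, *Pim2* and *Vpreb3*, in 570 of all 32851 windows (1.74%) and in 1.32% of those of genes tested against both. The EBF site was in 7 of 228 (3.07%), those of *Cd22*, *Chst3*, *Ctps2*, *Gimap6*, *Hip1r*, *Myo1e* and *Ppp1r16b*, in 297 of all (0.904%) and in 1.10% of those of genes tested against both. Of the 12 windows found for the 15 genes of largest ratio, 1 held the octamer and 0 the EBF site. The windows of *Vpreb3* (chr10:75948050-75948349, plus strand) and *Cd22* (chr7:30878979-30879278, minus strand) are printed as an example of each motif, 5′ to 3′ on the gene's strand, with the match in capitals.
Vpreb3: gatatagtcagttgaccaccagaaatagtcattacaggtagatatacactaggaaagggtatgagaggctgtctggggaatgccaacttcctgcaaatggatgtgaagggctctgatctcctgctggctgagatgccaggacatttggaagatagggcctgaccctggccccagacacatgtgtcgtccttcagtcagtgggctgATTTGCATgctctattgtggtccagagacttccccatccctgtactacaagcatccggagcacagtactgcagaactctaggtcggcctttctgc
Cd22: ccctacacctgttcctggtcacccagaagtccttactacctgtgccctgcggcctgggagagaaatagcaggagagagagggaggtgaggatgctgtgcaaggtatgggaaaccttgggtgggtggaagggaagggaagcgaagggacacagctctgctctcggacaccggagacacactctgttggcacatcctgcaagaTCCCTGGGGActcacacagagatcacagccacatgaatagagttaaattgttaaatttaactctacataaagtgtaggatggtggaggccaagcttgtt
A match is a run of letters and was not shown to be a bound site, and 153 of the genes called higher against both had a window.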

How the data were processed

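The authors mapped and counted single reads of 50 bases from each sorted cell and deposited raw counts per gene and cell, without normalization. The submitters' processing notes name bcl2fastq, Bowtie, Bowtie2, Subread featureCounts and Seurat, and the builds GRCm38 and mm10. Their clusters and annotation, made with pagoda2, were used as deposited. The members and gene lists were chosen with earlier results of these data known.

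The 92 ERCC spike-ins were left out. Counts of i5, male i2 and male Kupffer cells were summed and scaled to CPM, and ratios used 1 CPM as pseudocount. These groups are parts of 1 sample, the male immune pool, so no test was run and no p-value is given. Genes of the fixed lists could be named. By rule, the text also names the 15 genes of largest and the 10 of lowest ratio called against both references, leaving V segments aside. The 15 had to be counted in at least 50% of i5 cells. Some of these genes are not reported here. The authors had gated out doublets by scatter and by a ceiling on expressed genes, and no caller was run. Scripts used Python 3.11.15, numpy 2.4.6, scipy 1.17.1, pandas 2.3.3 and matplotlib 3.10.9, and were tested on simulated counts. Alternatives are given in the closing section.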

Additional observations from a re-analysis of the deposited data

Results flagged for a closer look

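Outside i5, 12 of 3433 cells (0.350%, 0.181 to 0.610%) had at least 5 of 9 B cell genes at 20 counts or more, the level that 56 of the 58 i5 cells reached. They stand out as a B cell signal outside the cluster. All but 1 lay outside the cells compared, and that 1, a male cell annotated Cont, was among the 134 male Kupffer reference cells by its cluster. None lay on a plate with i5 cells. Of the 12, 9 were female and 3 male, 6 were immune cells, 3 endothelial and 3 mesenchymal, and 5 were among the 26 cells the authors annotated Cont. They had 4717 to 10308 genes with a median of 6445, against 3870 in i5. Whether they held more than 1 cell was not tested.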

How the results depend on the processing

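No analysis paired by mouse was possible, because all i5 cells belong to 1 pool and no label ties a cell to a mouse. Pairing by plate is given as within-plate ratios. With no filter on the share of cells the counts of genes higher and lower than in Kupffer cells were 2494 and 2898, and than in i2 1433 and 3183. At a 2-fold ratio they were 1444, 1272, 983 and 1735, and with cells thinned to 50000 counts 351, 401, 174 and 493. Within-plate ratios gave 1021 and 786 genes higher than in Kupffer cells and i2, 818 and 1215 lower, and Kupffer cells of both sexes 1321 lower. Chosen after the data were seen, a limit of 20 counts gave 218, 223, 113 and 318, and reference cells from plates without i5 gave 539 higher than in i2. Leaving out each plate in turn gave 611 to 759, 766 to 967, 290 to 399 and 936 to 1436. The kappa share, 8.62% at 90% or more of light chain counts, was 69.0% at more than 50% of them. Kept at 90%, it ran from 3.85% without EC_170s to 21.7% without 704s. The cause was not tested. The 50 ratios of the named genes kept direction and a size of 2 or more under the alternatives run for them, except that within-plate ratios left 46, and that of *C3ar1* over i2 turned to 0.33. Of 700 single values, 172 moved beyond their counting interval. With 58 cells of 1 pool, variation between mice was not measured, and the counting intervals do not cover it.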
